A study of Mus musculus with 6 samples.

Results

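The genes described are 10 that enteroendocrine cells of the gut lining use to make or store their signals: the peptide hormone genes Cck, Gip, Sct, Sst, Ghrl, Gcg and Nts, the granin genes Chga and Chgb, and Tph1, the enzyme gene of serotonin synthesis. They were chosen by name from 22180 genes that had a probe set annotated with a single symbol, and each of the 10 had 1 such probe set. Total RNA came from duodenum of 3 mice without the vitamin D receptor (VDR-null) and 3 wild-type mice, all aged 10 weeks and on a C57Bl/6 background, each measured on 1 Affymetrix Mouse Gene 2.0 ST array. The labels state neither how the receptor gene was disrupted nor the animals' sex or diet, and they name no agent or further allele in either group. Values are log2 signals, so that a difference of 1 is a 2-fold difference; they compare the same probe set between arrays, not the level of one gene with that of another.

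Enteroendocrine cells are scattered among the absorptive cells of the epithelium, sense the contents of the lumen and release hormones into the lamina propria. Duodenal subtypes are named for their main product: I cells make cholecystokinin, K cells glucose-dependent insulinotropic polypeptide, S cells secretin, D cells somatostatin, and enterochromaffin cells serotonin. Prohormones are cut by convertases inside dense-core granules, and granins are the acidic proteins that pack those granules. In RNA from whole tissue, fewer cells of a type and less RNA per cell cannot be told apart.

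The upstream sequences of 5 genes are shown because Cck and Chgb have the most positive and the most negative genotype difference among the genes tested, Sst and Chgb carry the full cAMP response element, the letters bound by the CREB family, Chga carries the element's core, and Gip carries a GATA site. They are the 120 bases before the RefSeq start (build GRCm38.p6), 5′ to 3′ on the gene's strand, with cAMP response elements (TGACGTCA), their core (TGACG or its reverse complement) and the GATA site (AGATAA) in capitals.
Cck, chr9:121495695-121495814, minus strand: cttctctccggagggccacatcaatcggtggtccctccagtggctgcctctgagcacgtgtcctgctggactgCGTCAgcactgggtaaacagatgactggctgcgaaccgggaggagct
Gip, chr11:96024425-96024544, plus strand: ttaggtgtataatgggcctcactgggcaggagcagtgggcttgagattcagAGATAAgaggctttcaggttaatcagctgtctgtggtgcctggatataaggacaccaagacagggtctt
Sst, chr16:23890845-23890964, minus strand: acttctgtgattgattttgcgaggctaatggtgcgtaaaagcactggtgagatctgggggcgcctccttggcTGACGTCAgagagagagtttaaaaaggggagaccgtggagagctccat
Chga, chr12:102554821-102554940, plus strand: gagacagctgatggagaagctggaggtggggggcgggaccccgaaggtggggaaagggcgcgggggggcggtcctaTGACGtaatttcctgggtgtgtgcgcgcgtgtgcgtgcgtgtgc
Chgb, chr2:132781522-132781641, plus strand: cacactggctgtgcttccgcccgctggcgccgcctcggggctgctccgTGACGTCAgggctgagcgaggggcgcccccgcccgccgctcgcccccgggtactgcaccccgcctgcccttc

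RefSeq listed 14 starts for the 10 genes, since Ghrl and Tph1 have several. In the 250 bases before the start, searched on both strands, the full element TGACGTCA was found before 2 of the 14 starts, those of Chgb and Sst, and in 1.55% of 32851 promoters of all genes. Its core TGACG, which overlaps the full element, was found before 7 of the 14 starts (of Cck, Chga, Chgb, Nts, Sst and Tph1), against 17.8% of all promoters. The GATA site AGATAA was found before 3 starts (of Cck, Gip and Nts), against 9.99% of all promoters. An E-box of the form CAGATG, which basic helix-loop-helix factors such as NEUROD1 bind, was found before 3 starts (of Cck, Gcg and Sct), against 14.4% of all promoters, and on the gene's strand TATAAA before 2 (of Gcg and Sct), against 7.59%. A match is a run of letters, not a measured binding site.

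The 6 arrays had medians between 5.15 and 5.19. The probe set of Vdr read 10.99, 10.86 and 10.85 in VDR-null duodenum, against 10.72, 10.95 and 11.11 in wild-type duodenum, so it did not separate the genotypes. Without the structure of the allele, a signal from this probe set is no check of the genotype labels. Some arrays stood apart in markers of other cells, each list taken as the mean of its tested markers after centring each marker over the 6 arrays. Alpi, the alkaline phosphatase of the small intestinal brush border, read between 10.86 and 12.85 on the 6 arrays of this tissue. The enterocyte brush border (19 of 20 markers tested, among them Alpi and Anpep) lay at 0.95, 0.40 and -0.09 on the VDR-null arrays, against -1.45, 0.18 and 0.01 on the wild-type arrays. Pancreatic acinar markers (9 of 19 tested) lay at 1.71 on VDR-null replicate 3 and between -0.67 and 0.25 on the other 5 arrays. Ctrb1, Cpa1, Try4, Ctrl, Cela1 and Rnase1, named after their values were seen, were highest on that array, with Ctrb1 at 11.06 there and between 6.19 and 8.57 elsewhere. For Rnase1 the margin was small, at 8.19 there against 8.16 on wild-type replicate 1. The brightest acinar markers did not follow the acinar mean: Clps was highest on wild-type replicate 1, at 11.85, and Spink1 on VDR-null replicate 1, at 10.15.

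The mean of the hormone and granin genes moved little beside these markers. Of the 10 genes, 9 were bright enough to be tested, with all 6 arrays above 5.17, the median of all values; Nts was not. The mean of the 9, centred in the same way, stayed between -0.05 and 0.06 on the 6 arrays, a range of 0.11, while the brush border mean ranged over 2.40. A narrow range was not particular to these genes. Means of the related gene lists described below ranged over 0.12 (nutrient sensing) to 0.48 (serotonin handling), and that of goblet and tuft cell markers over 0.19. Taken singly, the 9 genes ranged over 0.29 to 0.63 across the arrays, with a median range of 0.50, against 0.43 for all 13174 genes tested. No array was high or low throughout: VDR-null replicate 1 was the highest array for 3 of the 9 genes (Cck, Sct and Tph1) and the lowest for another 3 (Ghrl, Chga and Chgb).

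**Figure D1:**
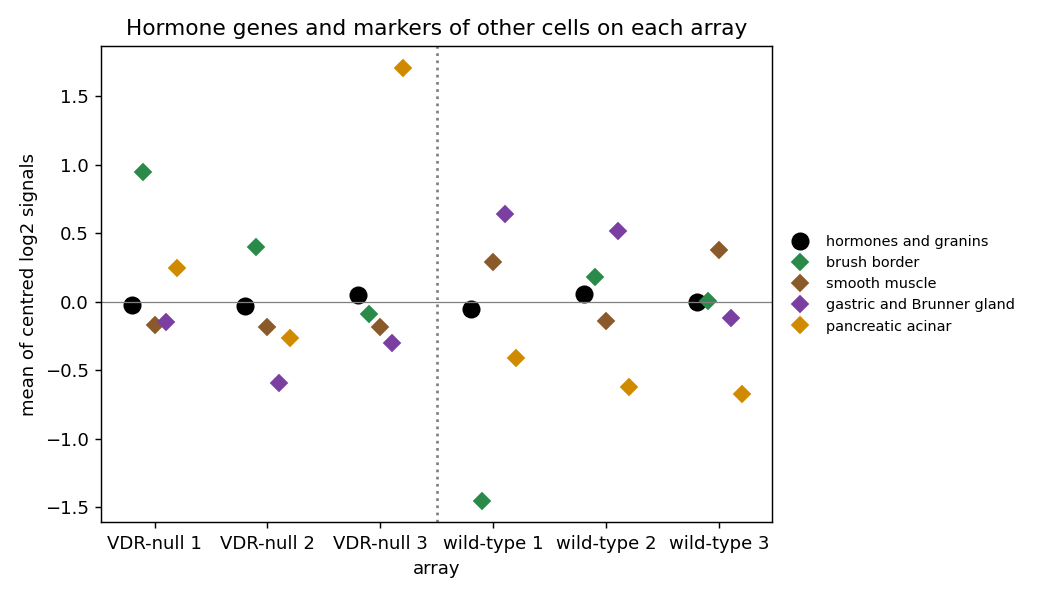
Mean centred log2 signal (vertical axis) on each of the 6 arrays (horizontal axis) for the 9 tested hormone and granin genes (black circles) and for markers of the brush border, smooth muscle, gastric mucosa with Brunner gland, and pancreatic acinus (diamonds). The black circles stay between -0.05 and 0.06, while brush border markers reach -1.45 on wild-type replicate 1 and acinar markers 1.71 on VDR-null replicate 3.

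None of the 9 tested genes differed between the genotypes past the threshold. Of them 5 were nominally higher and 4 lower in VDR-null duodenum (44.0% and 56.0% over all genes tested), with a median difference of 0.01 against -0.03 over all genes tested. In limma 0 of 9 passed an adjusted p of 0.05, where the share over all genes was 0.0%, and 0 of 9 had an unadjusted p under 0.05, against 5.23% of all genes. In 0 of 9 were the 3 VDR-null arrays all above or all below the 3 wild-type arrays, against 11.1% of all genes. The smallest adjusted p among the 9 was 0.683 (limma). The 95% confidence intervals bound what these arrays allow: all 9 lie between -0.56 and 0.58 on the log2 scale, that is, within 1.49-fold higher and 1.47-fold lower in VDR-null duodenum.

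**Figure D2:**
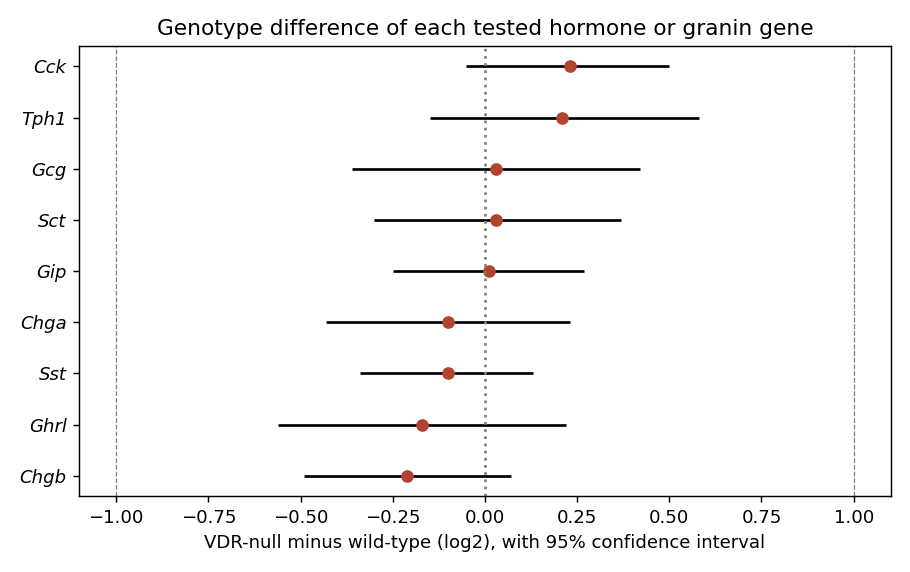
Difference between VDR-null and wild-type duodenum in log2 units (horizontal axis; points) with its 95% confidence interval from limma (lines) for the 9 tested genes, 3 arrays per genotype. All 9 intervals cross 0 (dotted) and none reaches the dashed lines at 2-fold; Cck lies highest at 0.23 and Chgb lowest at -0.21.

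Among the hormones of the upper small intestine, Cck came closest to separating the genotypes. Cck encodes cholecystokinin, which contracts the gallbladder and drives pancreatic enzyme secretion. It read 9.01, 8.78 and 8.99 in VDR-null duodenum, against 8.69, 8.85 and 8.55 in wild-type duodenum. Only VDR-null replicate 2 and wild-type replicate 2 overlapped. The difference was 0.23 ± 0.12 (SE; 95% confidence interval -0.05 to 0.50; 1.17-fold; limma adjusted p = 0.683), and it became 0.04 with the smooth muscle mean as a covariate. That mean lay at -0.17, -0.18 and -0.18 on VDR-null arrays, against 0.29, -0.14 and 0.38 on wild-type arrays. It went largely with genotype, so fits that include it cannot tell smooth muscle content and genotype apart.

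Gip encodes the incretin of K cells, which augments insulin release after a meal. It read 9.92, 9.74 and 9.91 in VDR-null duodenum, against 9.72, 10.01 and 9.81 in wild-type duodenum. All 3 VDR-null values lay inside the wild-type range, and the difference was 0.01 ± 0.11 (SE; 95% confidence interval -0.25 to 0.27; limma adjusted p = 0.969). Of the genes tested here, it had the difference nearest to 0.

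Sct encodes secretin, which makes the pancreatic ducts secrete bicarbonate when acid enters the duodenum. It read 7.05, 6.84 and 6.55 in VDR-null duodenum, against 6.67, 6.81 and 6.86 in wild-type duodenum. The VDR-null arrays held both the highest and the lowest value, with a standard deviation of 0.25 against 0.10 in wild-type (n = 3 each). The difference was 0.03 ± 0.14 (SE; limma adjusted p = 0.938).

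Sst encodes somatostatin, which restrains the release of most other gut hormones. Its signal was 9.37, 9.22 and 9.47 in VDR-null duodenum, against 9.39, 9.52 and 9.47 in wild-type duodenum. VDR-null replicate 3 lay inside the wild-type range and the other VDR-null arrays below it. The difference was -0.10 ± 0.10 (SE; 95% confidence interval -0.34 to 0.13; limma adjusted p = 0.729).

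Ghrl encodes ghrelin, the appetite-stimulating hormone that is made mostly in the stomach. It read 8.01, 8.65 and 8.34 in VDR-null duodenum, against 8.45, 8.61 and 8.45 in wild-type duodenum. VDR-null arrays were again at both ends, with a standard deviation of 0.32 against 0.09 in wild-type (n = 3 each). The difference was -0.17 ± 0.16 (SE; limma adjusted p = 0.733), -0.0090 when VDR-null replicate 1 was left out and -0.33 when VDR-null replicate 2 was. Gastric and Brunner gland markers (7 of 17 tested, 6 of them lower in VDR-null) lay at -0.15, -0.59 and -0.30 on VDR-null arrays, against 0.64, 0.52 and -0.12 on wild-type arrays. The array with the lowest mean of these markers, VDR-null replicate 2, had the highest Ghrl signal. The list mixes gastric and Brunner gland markers, so its mean does not measure gastric tissue alone. What part gastric tissue had in the Ghrl values was not tested. Gkn3, a gastrokine, read 6.93, 6.88 and 7.27 in VDR-null duodenum, against 8.35, 7.93 and 7.98 in wild-type duodenum, without overlap (difference -1.06 ± 0.16, SE; limma adjusted p = 0.683). Tff2, a trefoil peptide of gastric and Brunner gland mucus, overlapped between the genotypes; it read 8.18, 6.19 and 7.46 in VDR-null duodenum, against 9.83, 9.59 and 6.84 in wild-type duodenum.

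Gcg encodes proglucagon, which the gut cuts into the glucagon-like peptides. Its values were 7.25, 7.03 and 7.30 in VDR-null duodenum, against 7.51, 6.97 and 7.02 in wild-type duodenum. Wild-type replicate 1 was the highest array, and without it the difference of 0.03 ± 0.16 (SE; limma adjusted p = 0.954) was 0.20. All VDR-null arrays then lay above the remaining wild-type arrays, but barely, at 7.03 against 7.02. Leaving out the highest wild-type array raises the difference by construction. Because pancreatic islets also make proglucagon and somatostatin, islet markers were read beside it. Of 9 listed islet markers 3 were tested, and all 3 were nominally lower in VDR-null duodenum (median difference -0.20), against 56.0% of all genes, without passing the threshold. Trpm5 among them is also on the list of goblet and tuft cell markers. Mafa, a transcription factor of beta cells, read 5.81, 5.90 and 6.17 in VDR-null duodenum, against 6.17, 6.32 and 6.42 in wild-type duodenum (difference -0.34 ± 0.13, SE; limma adjusted p = 0.683), and Ppy and Trpm5 differed by -0.20 ± 0.13 and -0.02 ± 0.13. Ins2, the islet insulin gene, lay between 3.53 and 3.96 on all 6 arrays, below the median of all values. On VDR-null replicate 3, where the acinar mean was high, Ins2 read 3.69. Ppy and Ins2 were named after their values were seen, and the part of islet RNA in the Gcg and Sst values was not tested.

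Nts encodes neurotensin, a hormone of the more distal small intestine. It was dim on all 6 arrays, at 4.35, 3.37 and 3.28 in VDR-null duodenum and 3.34, 3.44 and 3.07 in wild-type duodenum. VDR-null replicate 1 stood above the other 5 arrays, which lay between 3.07 and 3.44. Since no array passed the median of all values, Nts was not tested and no fold is stated for it.

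The granins were lower in VDR-null means, within the replicate spread. Chga, chromogranin A, is a general marker of endocrine cells. It read 9.23, 9.53 and 9.76 in VDR-null duodenum, against 9.58, 9.64 and 9.60 in wild-type duodenum, so the VDR-null arrays lay on both sides of a tight wild-type group (standard deviation 0.26 against 0.03, n = 3 each). The difference was -0.10 ± 0.14 (SE; limma adjusted p = 0.815), and 0.04 without VDR-null replicate 1. Chgb, chromogranin B, read 9.85, 9.88 and 10.18 in VDR-null duodenum, against 10.07, 10.20 and 10.26 in wild-type duodenum. Only VDR-null replicate 3 reached into the wild-type range. Its difference was -0.21 ± 0.12 (SE; 95% confidence interval -0.49 to 0.07; 1.16-fold higher in wild-type; limma adjusted p = 0.683).

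Tph1 encodes the tryptophan hydroxylase of enterochromaffin cells, the first and rate-limiting step of serotonin synthesis in the gut. It read 7.35, 7.28 and 7.18 in VDR-null duodenum, against 6.72, 7.21 and 7.24 in wild-type duodenum. Wild-type replicate 1, which also had the lowest brush border mean, stood below the other 5 arrays. The difference of 0.21 ± 0.15 (SE; limma adjusted p = 0.689) was 0.04 without that array and -0.03 when the brush border mean was a covariate. Mast cells can also express Tph1. Of 12 mast cell markers 4 were tested, 3 nominally higher and 1 lower in VDR-null duodenum. Kit differed by 0.01 ± 0.14, Gata2 by -0.16 ± 0.19, Mcpt1 by 0.26 ± 0.40 and Mcpt2 by 0.45 ± 0.37 (SE). Cpa3 and Fcer1a were dim on all 6 arrays. Mcpt1, Mcpt2, Cpa3 and Fcer1a were named after their values were seen. The mast cell mean lay at -0.26, 0.33 and 0.14 on VDR-null arrays, against 0.06, 0.07 and -0.34 on wild-type arrays; its part in the Tph1 values was not tested.

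**Figure D3:**
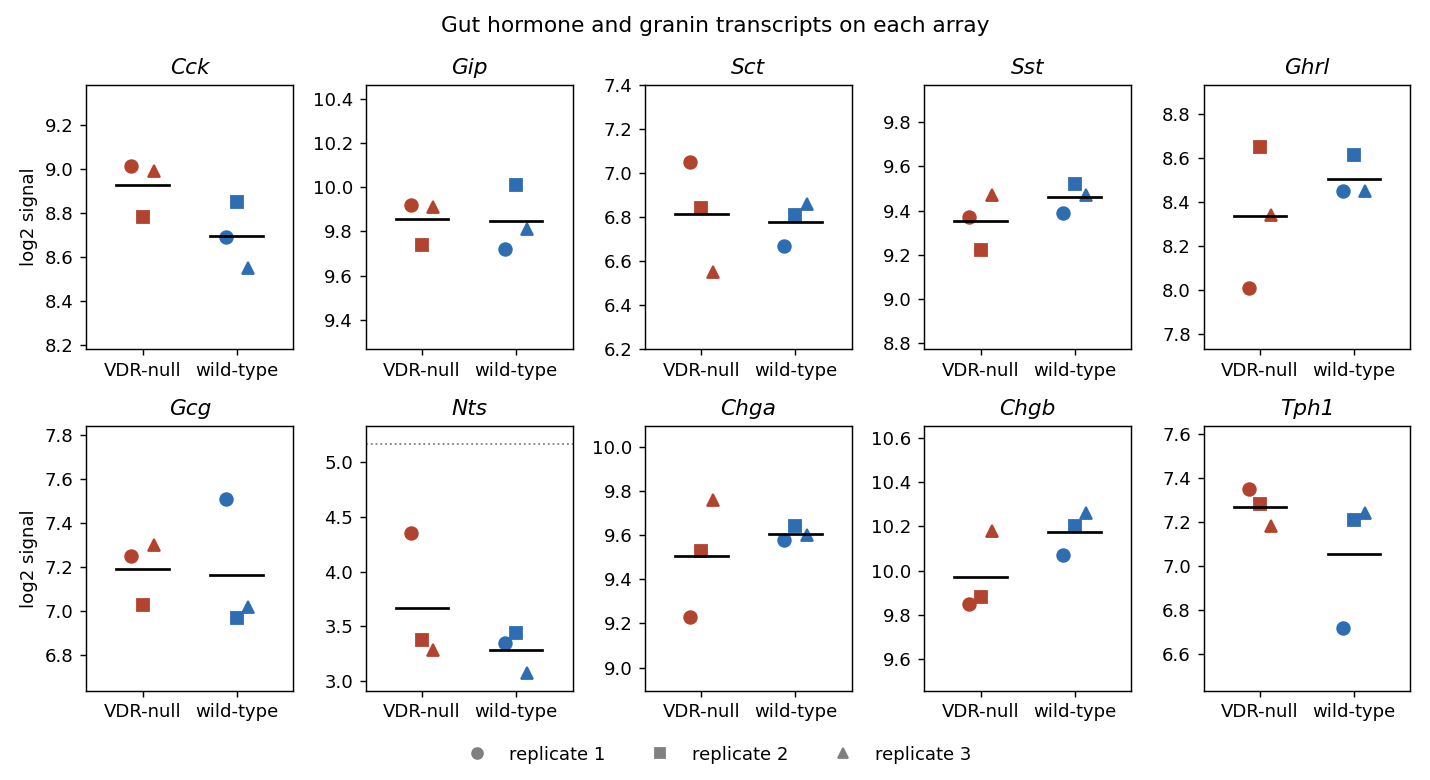
Log2 signal (vertical axis, one scale per gene) of the 10 genes on the 3 VDR-null (red, left) and 3 wild-type (blue, right) arrays, with marker shape giving the replicate and a bar the group mean. The groups overlap in every panel; the dotted line in the Nts panel is the median of all values, 5.17, above all of its points.

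Whether the balance between hormones differed was read from the within-array difference of each pair of the 9 tested genes, as a description. In 4 of 36 pairs, 11.1%, the genotypes did not overlap, against 10.8% of all pairs of tested genes, so the share lay near the background. All 4 pairs held Cck, which was higher relative to Gip, Sst, Chga and Chgb on every VDR-null array than on any wild-type array. The largest shift of means among them was that of Cck minus Chgb, at -0.84, -1.10 and -1.19 in VDR-null duodenum, against -1.38, -1.35 and -1.71 in wild-type duodenum, a difference of 0.44. For Cck minus Chga the groups all but touched, at -0.77 on VDR-null replicate 3 and -0.79 on wild-type replicate 2. The 4 pairs share the Cck values, so they are not separate observations.

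Genes that process and store the hormones gave counts on the lower side. Of 22 tested genes of prohormone processing and dense-core vesicles, 5 were nominally higher and 17 lower, with a median difference of -0.09 against -0.03 over all genes and 0 past the limma threshold. With the smooth muscle mean, which went largely with genotype, as a covariate they split 11 and 11. Pam, which amidates the C-terminus of peptides such as cholecystokinin and secretin, read 8.19, 8.30 and 8.39 in VDR-null duodenum, against 8.61, 8.45 and 8.69 in wild-type duodenum. Its groups did not overlap, but the difference of -0.29 ± 0.10 (SE) had a limma adjusted p of 0.683, and it was -0.14 with the smooth muscle mean as a covariate. Peg3 differed by -0.27 ± 0.11 and the calcium channel subunit Cacna1a by -0.26 ± 0.12 (SE; limma adjusted p = 0.683 for both). Pcsk1, the prohormone convertase of many enteroendocrine cells, averaged 6.73 in VDR-null and 6.62 in wild-type duodenum, a difference of 0.10 ± 0.13 (SE). Cpe, which trims the cut peptides, differed by -0.29 ± 0.15 and the granin Scg2 by -0.13 ± 0.14 (SE). Pcsk1, Cpe and Scg2 were named after their values were seen.

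The genes around serotonin split. Of 9 tested genes on the list of its synthesis, transport and breakdown, 6 were nominally higher and 3 lower in VDR-null duodenum (median difference 0.18). None passed the limma threshold. The list also holds the serotonin receptor genes Htr3a and Htr4, named after their values were seen. These differed by -0.09 ± 0.13 and -0.27 ± 0.19 (SE), and with Slc18a2 they were the lower genes. Slc18a1, the vesicular monoamine transporter of endocrine cells, read 7.29, 6.92 and 6.89 in VDR-null duodenum, against 6.71, 6.63 and 6.65 in wild-type duodenum. Its groups did not overlap, and the difference was 0.37 ± 0.13 (SE; limma adjusted p = 0.683) and 0.24 without VDR-null replicate 1. Slc18a2, the other vesicular monoamine transporter, named after its values were seen, went in the opposite direction. It read 5.42, 5.05 and 5.54 in VDR-null duodenum, against 5.55, 5.82 and 5.55 in wild-type duodenum, groups that all but touch. Its difference was -0.30 ± 0.15 (SE; limma adjusted p = 0.683). Slc6a4, the transporter by which epithelial cells take up serotonin, read 8.84, 8.82 and 8.62 in VDR-null duodenum, against 8.23, 8.62 and 8.47 in wild-type duodenum (difference 0.33 ± 0.13; limma adjusted p = 0.683). Maoa, which degrades serotonin, read 10.59, 10.30 and 10.09 in VDR-null duodenum, against 9.39, 10.22 and 9.87 in wild-type duodenum, with a difference of 0.50 ± 0.23 (SE). After adding the brush border mean as a covariate, the differences were 0.32 for Slc18a1, 0.15 for Slc6a4 and 0.13 for Maoa, and 3 of the 9 genes were then higher. Leaving out VDR-null replicate 1, 4 were higher and 5 lower, with a median of -0.01.

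Transcription factors of the enteroendocrine lineage were lower in VDR-null means for 15 of 18 tested genes, against 56.0% of all genes, with a median difference of -0.14 and 0 past the limma threshold. In 6 of the 18 the VDR-null arrays all lay below the wild-type arrays, against 6.22% of all genes. Runx1t1 read 6.19, 6.29 and 6.31 in VDR-null duodenum, against 6.60, 6.65 and 6.59 in wild-type duodenum, Nkx2-2 differed by -0.26 ± 0.08 and Insm1 by -0.26 ± 0.09 (SE; limma adjusted p = 0.683 for all 3). With the smooth muscle mean as a covariate 9 of the 18 were higher and 9 lower, while Runx1t1, Nkx2-2 and Insm1 differed by -0.40, -0.33 and -0.35. Smooth muscle markers were themselves nominally lower for 14 of 14, and their mean lay at -0.17, -0.18 and -0.18 on VDR-null arrays, against 0.29, -0.14 and 0.38 on wild-type arrays; Acta2 and Myl9 each differed by -0.33 ± 0.13 (SE). Cell division markers, which mark the dividing cells of the crypt, were nominally lower for 20 of 20 tested (median -0.26), with Mki67 at -0.42 ± 0.17 and Pcna at -0.17 ± 0.18 (SE). Their mean lay at -0.42, -0.14 and 0.18 on VDR-null arrays, against 0.33, -0.11 and 0.16 on wild-type arrays. Leaving out both replicate 1 arrays, 8 of the 20 were higher and 12 lower (median -0.03), while the transcription factors gave 2 higher and 16 lower (median -0.14). The part of cell division and of smooth muscle in these counts was not tested.

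Other gut peptides showed 1 nominally higher and 7 lower of 8 tested genes, with a median difference of -0.22 and 0 past the limma threshold. Penk, a peptide precursor of enteric neurons, read 5.28, 5.12 and 5.39 in VDR-null duodenum, against 5.40, 5.60 and 5.90 in wild-type duodenum, groups that all but touch. Gast, the gastrin gene, differed by -0.21 ± 0.10 and Cartpt by -0.23 ± 0.12 (SE; limma adjusted p = 0.683 for all 3 peptides). Markers of enteric neurons and glia, in which Penk, Cartpt and several other peptides of the list are also made, were nominally lower for 7 of 7 tested genes (of 20 listed), with a median of -0.15; Stmn2 differed by -0.07 ± 0.14 and Ret by -0.08 ± 0.11 (SE). Goblet and tuft cell markers split 8 higher and 6 lower, with Muc2 at -0.04 ± 0.10 and Fcgbp averaging 12.1 in both genotypes. With the smooth muscle mean as a covariate the peptides split 3 higher and 5 lower (median -0.04), and without VDR-null replicate 1 likewise 3 and 5 (median -0.13).

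Receptors gave no call either. Of 15 tested receptors and related genes for gut hormones, 4 were nominally higher and 11 lower in VDR-null duodenum (median difference -0.10; 0 past the limma threshold). Dpp4, the brush border peptidase that inactivates the incretins, read 10.88, 10.30 and 9.90 in VDR-null duodenum, against 9.51, 9.97 and 9.94 in wild-type duodenum. Its difference was 0.55 ± 0.26 (SE; limma adjusted p = 0.683), and 0.17 with the brush border mean, of which it is itself a marker, as a covariate. Gcgr differed by -0.14 ± 0.08 and Vipr1 by 0.18 ± 0.13 (SE). Of the list for sensing of nutrients and bile acids by endocrine cells, 7 genes were bright enough to be tested. Not all are receptors for nutrients or bile acids, since the list also holds Galr1 and the channel subunit gene Abcc8. Of the 7, 2 were nominally higher and 5 lower, with 0 past the limma threshold. Galr1, the galanin receptor of that list, read 5.63, 5.49 and 5.22 in VDR-null duodenum, against 5.72, 5.77 and 5.72 in wild-type duodenum, a difference of -0.29 ± 0.12 (SE; limma adjusted p = 0.683), and Tas1r3 and Abcc8 differed by 0.10 ± 0.10 and -0.08 ± 0.09.

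**Figure D4:**
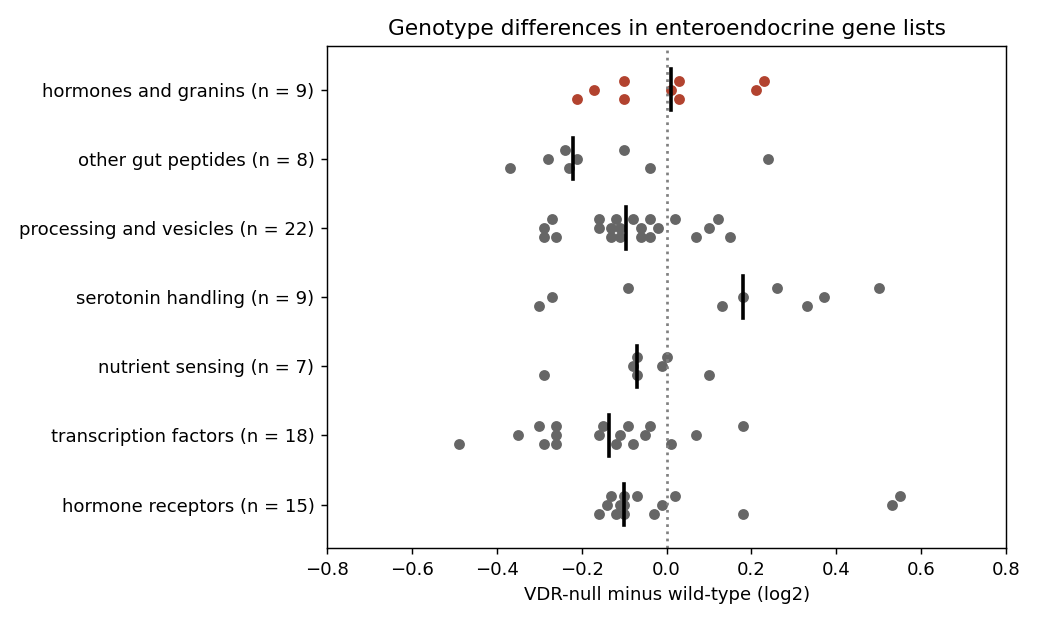
Difference between VDR-null and wild-type duodenum in log2 units (horizontal axis) for each tested gene (points) of the 10 hormone and granin genes and of 6 lists of related genes (rows), with a bar at each list's median and vertical jitter for legibility. The medians are 0.01 for hormones and granins, 0.18 for serotonin handling and between -0.22 and -0.07 for the other 5 lists.

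The likeness of profiles was measured as the root mean square difference between genes centred over the 6 arrays. The genes nearest to the mean of the 9 were Slc38a10 (0.0101 log2 units), Dda1 (0.0116) and Prss54 (0.0145), each ranging over 0.10 across the arrays. Among the 3 genes with the widest range, Tph1 lay nearest to Slc39a5 (0.0334), Vstm5 (0.0363) and Acaa2 (0.0365), Ghrl to Rbm12b2 (0.0362), Cdk14 (0.0457) and Card9 (0.0533), and Gcg to Pde12 (0.0516), Hspa2 (0.0554) and Eif2s2 (0.0558). None of these 12 genes belongs to the enteroendocrine lists.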

How the data were processed

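Each array carries 1 log2 signal per probe set as deposited. The submitters' processing notes name RMA and Affymetrix Expression Console as the authors' tools, with no version or genome build. RMA corrects background, makes the arrays' distributions alike and summarises probes, so dim genes show compressed differences. Of 41345 probe sets, 23521 had 1 gene symbol in the platform annotation; the brightest per gene was kept. Genes with at least 3 of 6 arrays above 5.17 were tested (13174) with limma 3.58.1 in R 4.3.3, two-sided, Benjamini-Hochberg over all of them, threshold 0.05, without covariates. The procedure was tested on simulated data. The genes and lists were chosen with earlier results of these data known, so lists are given as counts and medians without a test. Named by rule were the 10 genes, the 3 genes of each related list with the smallest p, the 2 brightest markers of each other cell type and the 3 nearest profiles. Vdr was named as the targeted gene, the genes dim on all arrays and those so described in the text after their values were seen. Sequences are RefSeq's, searched with Python 3.11.15; a RefSeq protein table was not used here. The number of arrays limits the precision.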

Additional observations from a re-analysis of the deposited data

How the results depend on the processing

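Over 20 alternatives the 9 genes gave 180 differences, 159 in the direction reported and 21 in the opposite one, and 0 past an adjusted p of 0.05 (lowest 0.196, for Chgb with array weights, limma). Cck stayed positive (0.04 to 0.31), Chgb (-0.31 to -0.15) and Sst (-0.20 to -0.04) negative. Leaving out 1 array, Gip (reported 0.01) ran from -0.05 to 0.09, Sct (0.03) from -0.08 to 0.16, Gcg (0.03) from -0.07 to 0.20 and Chga (-0.10) from -0.22 to 0.04. Leaving out both replicate 1 arrays, Gip was -0.08, Sct -0.14 and Chga 0.03. With array weights Gip was -0.06, Gcg -0.02 and Ghrl 0.08, and with a second quantile normalization Gip was -0.03. With the brush border covariate Gip was -0.07, Sct -0.13 and Tph1 -0.03, and with the smooth muscle covariate Gip was -0.15. The cause was not tested, and the smooth muscle covariate went largely with genotype. The median difference ran from -0.07 to 0.02 leaving out 1 array, and was -0.07 and -0.14 with the brush border or smooth muscle covariate. Genes without overlap numbered 0 to 4 leaving out 1 array and 2 without both replicate 1 arrays (Gcg and Chgb). Fewer arrays overlap less by construction, and the share over all genes was not counted with arrays left out. These counts therefore have no background to be set against, and no separation of the genotypes is read from them. With the replicate block the median difference was 0.01 and 0 genes were called, and it changed no other call. Deviations from the group means of same-numbered arrays correlated at -0.618, 0.193 and -0.263 across genes, and not every array correlated best with its own number. The labels give no pairing, and these correlations cannot show whether same-numbered mice shared a litter or handling.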

Other observations

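Several genes that act with these hormones were dim on all 6 arrays and give no measured difference. The cholecystokinin receptors Cckar and Cckbr and the secretin receptor Sctr lay at or below 5.09 on each array. The distal hormones Pyy, between 3.88 and 4.12, and Insl5 were dim as well, and neither followed the raised Nts signal of VDR-null replicate 1. Mboat4, the enzyme that acylates ghrelin, read 3.61, 3.44 and 3.74 in VDR-null and 3.42, 3.66 and 4.09 in wild-type duodenum. The fatty acid receptors Ffar1, Ffar2 and Ffar3 and the lipid receptor Gpr119 did not reach the median of all values on any array. Neurod1, a transcription factor of enteroendocrine cells, lay between 4.31 and 4.49.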
